A study of Drosophila melanogaster with 16 samples.

Results

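Heads of flies carrying a transgene on chromosome 2 were compared between the long repeat, 160R, and the short repeat, 5R. The comparison used 8 of the 16 libraries of the study, the 4 titled Chrom2-160R and the 4 titled Chrom2-5R, called 160R and 5R below, and all 13525 of the 17558 annotated genes that passed a filter on low counts. Both groups were heads of male Drosophila melanogaster collected 5 to 8 days after eclosion from flies grown on standard medium at 25 °C, and by the labels they differ in the transgene alone, 160R or 5R, expressed from chromosome 2. The labels do not say whether the 4 libraries of a group came from separate flies or cultures, so p-values measure the spread between libraries, which may be technical. They give neither the promoter that drives the transgene, nor the cells that express it, nor the genetic background or batch, so a difference in background or batch cannot be told apart from the repeat. The other 8 libraries, Chrom3-160R and Chrom3-5R, carry the same pair of repeats on chromosome 3 and serve here for the spread between libraries and for a test of whether a named gene behaved alike in both.

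The flies model neurodegeneration caused by C9ORF72, which in patients runs as frontotemporal dementia, as amyotrophic lateral sclerosis or as both. There a GGGGCC repeat in the first intron of C9ORF72 is expanded, its RNA collects in nuclear foci, and it can be translated without a start codon into proteins of repeating dipeptides. A fly head holds the brain, the compound eyes and antennae, the fat body around the brain, muscle and the cuticle that encloses them. The fat body is the insect counterpart of liver and fat tissue, storing lipid, making the carrier proteins of the blood and holding many enzymes that break down foreign compounds and hormones.

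Libraries were strand-specific and used total RNA without poly(A) selection, so unspliced RNA can enter the counts. They held 11452337 to 23498476 counts in 5R and 19047916 to 30496479 in 160R. Levels are CPM, counts scaled to a common library size, and per-library values are listed in the order of the replicate numbers 1 to 4. Counts cover whole gene spans and were not split by strand where spans overlap, so genes whose span overlaps no other gene (6066 of the 13525 tested) were preferred. Of the markers fixed for neurons, glia and photoreceptors none was at 0 in all 8 libraries, and the female markers summed to 1.7 to 6.77 CPM in 5R and 1.34 to 2.99 CPM in 160R. Summed over their marker lists, fat body genes stood at 10400 to 11900 CPM in 5R and 6070 to 6830 CPM in 160R (4 of 5 fell), muscle genes at 3870 to 4520 and 5090 to 8940 CPM (4 of 6 rose), neuronal genes at 4030 to 4300 and 4510 to 4580 CPM (3 of 6 rose), and glial genes at 885 to 915 and 869 to 1020 CPM (1 of 4 rose). Midgut markers stood at 83.2 to 113 and 32.5 to 47.6 CPM (2 of 2 tested fell), almost all from Amy-d and Amy-p. The midgut markers Jon65Aiii, Jon99Cii and alphaTry were at or below 0.269 CPM in every library. Hemocyte genes stood at 399 to 488 and 383 to 462 CPM (1 of 4 fell), and cuticle genes at 5.75 to 9.22 and 23.4 to 153 CPM (1 of 5 rose). The cuticle sum rose mainly by Acp1, at 0.43 to 2.18 CPM in 5R and 15 to 136 CPM in 160R, and no other cuticle marker was called. The fat body sum was mostly Rfabg, at 8510 to 10100 CPM in 5R and 5340 to 6220 CPM in 160R. Of the others Mtp, to and Yp1 fell, Yp1 at or below 10.1 CPM, and Lsp2 was not called (edgeR adjusted p = 0.053). In bulk tissue, fewer cells of a type and less RNA per cell cannot be told apart, and the part of these cell types in the results below was not tested. A library stood apart in each group. Chrom2-160R replicate 1 differed from the other 160R libraries by a chi-square per degree of freedom of 29.7 to 43.7, where the others differed among themselves by 8.77 to 10.9, and it held the highest muscle and cuticle sums (8940 and 153 CPM). Chrom2-5R replicate 4 differed from the other 5R libraries by 21.9 to 25, against 6.91 to 9.5 among those. Log2 changes that moved by over 1.5 times, or by over 1.5-fold, without either library are given with and without it.

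In 160R heads 3535 of 13525 genes (26.1%) were called at an adjusted p below 0.05, 1735 higher (12.8%) and 1800 lower (13.3%). Most changes were small, since 738 genes (5.46%) were called and changed by at least 1.5-fold, 339 of them higher and 399 lower. Among genes that overlap no other, 1682 of 6066 were called (27.7%). The 4 libraries of one group did not overlap the 4 of the other in CPM for 3051 genes (22.6%). The genes described first were chosen as those that overlap no other gene, were called in the full fit and without each library in turn, had a mean of at least 5 CPM in the higher group and groups that did not overlap. This left 867 of 6066 genes (14.3%), 399 higher and 468 lower, and the 12 largest rises and 12 largest falls are those in the plot of CPM by library. For these rises and falls the lack of overlap between groups is a condition of the choice, and where it is mentioned below it is no separate result. In each gene class the 3 called members with the smallest p are candidates for naming, those without overlap first, and genes named only to complete a small count were chosen after their values were seen. Of those, Ddc, Nmdmc, aay, CG11455, Tsp29Fb and Irk3 overlap a gene with 0.211 to 2.7 times their counts, and TwdlE one with 10.2 times its counts, so their changes are uncertain.

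**Figure D1:**
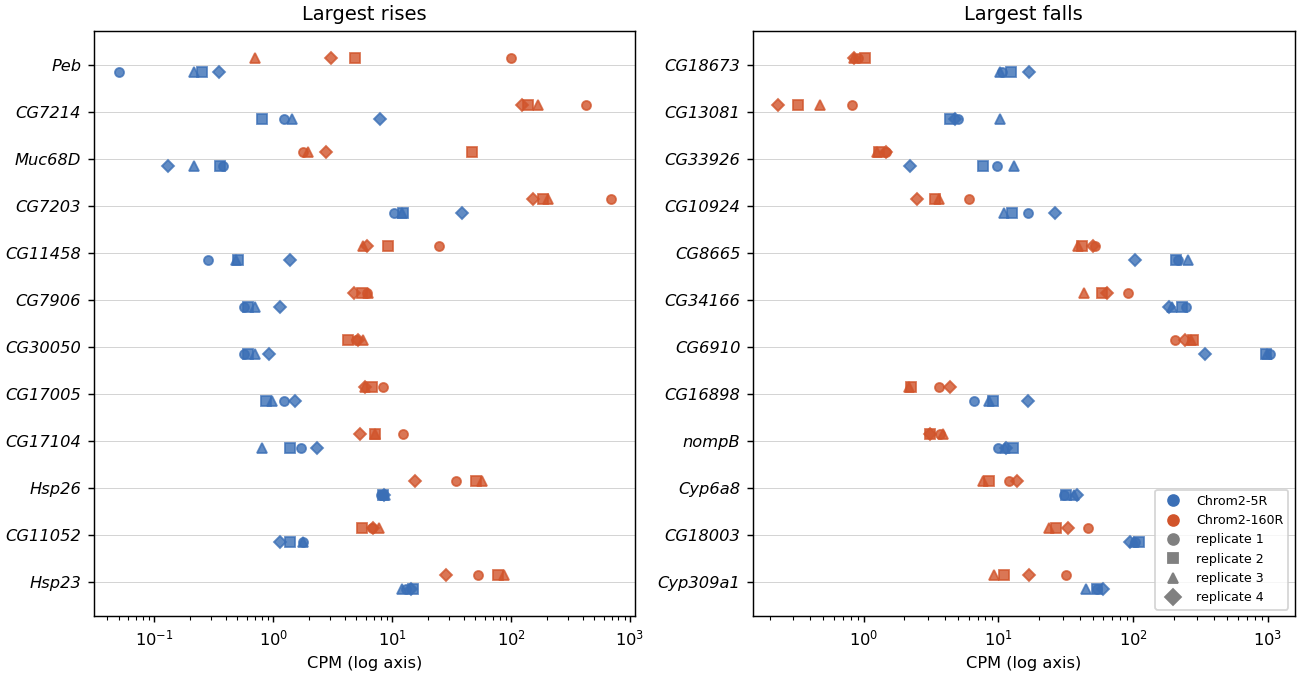
Level of the 12 largest rises and 12 largest falls in each of the 8 libraries, as CPM on a log axis, with 5R in blue, 160R in orange and a symbol for each replicate; a value of 0 is drawn at 0.05. For CG11052, CG30050 and nompB the libraries of each group lie close together, while the 160R values of Peb run from 0.708 to 99.9 CPM and those of Muc68D from 1.77 to 46.5 CPM.

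The steepest rises were Peb, CG7214, Muc68D, CG7203 and CG11458, which but for CG7203 were below 10 CPM in every 5R library. Peb, a protein of the male ejaculatory bulb, stood at 0, 0.254, 0.215 and 0.348 CPM in the 5R libraries and at 99.9, 4.83, 0.708 and 3.04 CPM in the 160R libraries. All 160R libraries lay above all 5R libraries, but replicate 1 lay far above the rest, and the log2 change was 6.81 ± 1.72 (edgeR adjusted p = 0.012), or 3.55 without that library. Muc68D, a gene of the mucin family, was at 0.377, 0.355, 0.215 and 0.131 CPM in 5R and at 1.77, 46.5, 1.96 and 2.78 CPM in 160R. Here replicate 2 stood alone, and the log2 change of 5.66 ± 1.37 (edgeR adjusted p = 0.0095) became 3.1 without it. The neighbours CG7214 (2L, 7743682 to 7744839 of build BDGP6) and CG7203, uncharacterised genes beside the adult cuticle gene Acp1, moved alike. CG7214 measured 1.23, 0.812, 1.45 and 7.92 CPM in the 5R libraries against 423, 140, 169 and 123 CPM in the 160R libraries. CG7203 had 10.3, 12.3, 12 and 38.7 CPM in 5R heads and 690, 186, 205 and 154 CPM in 160R heads. In both, 160R replicate 1 was the highest of its group, 5R replicate 4 was the highest of its own, and by the rule of choice no value of one group reached the other. Their log2 changes were 6.07 ± 1.55 (edgeR adjusted p = 0.013) and 4.02 ± 0.99 (edgeR adjusted p = 0.011). Without 5R replicate 4 they were 7.54 and 4.72, and without 160R replicate 1 CG7203 changed by 3.25. CG11458 stood at 0.283, 0.508, 0.484 and 1.39 CPM in the 5R libraries and at 24.7, 9.18, 5.7 and 6.14 CPM in the 160R libraries, with the same libraries highest and a log2 change of 3.92 ± 1.0 (edgeR adjusted p = 0.013), which was 4.64 without 5R replicate 4 and 3.22 without 160R replicate 1. With limma-voom the calls of Peb, Muc68D, CG7214 and CG11458 ended (adjusted p = 0.382, 0.165, 0.109 and 0.145), and with the 8 libraries fitted alone edgeR gave 0.103 for Peb and 0.0914 for Muc68D. For Muc68D DESeq2 gave no adjusted p. Of 12 genes of the male germline, accessory gland and ejaculatory bulb 3 rose and 1 fell (33.3% against 26.1% of all genes). The rises were Peb, Acp95EF (0.68) and Acp33A (0.71), the last pair overlapping genes with 17.9 and 124 times their counts. PebIII fell (-0.22 ± 0.08, or -0.13 without 5R replicate 1), a call that ended when 5R library 1 or 2 or 160R library 2, 3 or 4 was left out (edgeR adjusted p 0.08 to 0.182). As the median over its genes of log2 CPM centred on the 8 libraries, this male class stood at 0.97 in 160R replicate 1. It was at -0.09 to 0.06 in 160R libraries 2 to 4 and at -0.27 to 0.03 in 5R. The male marker PebII, too low to be tested, had 14.7 CPM in 160R replicate 1 and at most 0.966 CPM elsewhere. The summed muscle and cuticle markers, the latter mostly Acp1 in 160R, were likewise highest in 160R replicate 1. The part of male tract, cuticle and muscle tissue in these rises was not tested.

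The other uncharacterised genes among the largest rises were spread less widely in 160R. CG30050 was at 0.565, 0.609, 0.699 and 0.914 CPM in 5R and at 4.92, 4.29, 5.67 and 5.19 CPM in 160R. This uncharacterised gene (2R, 12408954 to 12409735) lies next to the cuticle genes Cpr49Ag and Cpr49Af, and its log2 change was 2.81 ± 0.28 (edgeR adjusted p = 3.6e-06). Cpr49Ag measured 7.63, 6.24, 6.88 and 6.4 CPM in the 5R libraries against 21.8, 14.9, 20 and 19 CPM in the 160R libraries. Cpr49Af had 0.283, 0.305, 0.322 and 0.348 CPM in 5R heads and 1.47, 1.66, 2.13 and 2.32 CPM in 160R heads. The 3 neighbours were higher in every 160R library than in any 5R library, with log2 changes of 1.49 ± 0.29 (edgeR adjusted p = 0.0025) and 2.58 ± 0.32 (edgeR adjusted p = 3.2e-05) for the cuticle genes. CG17005 stood at 1.23, 0.863, 0.967 and 1.52 CPM in the 5R libraries and at 8.41, 6.76, 5.87 and 5.88 CPM in the 160R libraries. CG11052 was at 1.79, 1.37, 1.77 and 1.13 CPM in 5R and at 6.74, 5.58, 7.76 and 6.86 CPM in 160R. CG7906 measured 0.565, 0.609, 0.699 and 1.13 CPM in the 5R libraries against 6.18, 5.53, 6.31 and 4.8 CPM in the 160R libraries. Each of these uncharacterised genes was below 2 CPM in 5R and, by the rule of choice, higher in all 160R libraries. The log2 change of CG17005 was 2.54 ± 0.19 (edgeR adjusted p = 2.2e-07), that of CG11052 2.19 ± 0.14 (edgeR adjusted p = 2.9e-08) and that of CG7906 2.86 ± 0.46 (edgeR adjusted p = 0.00056). CG17104 had 1.7, 1.37, 0.806 and 2.35 CPM in 5R heads and 12.3, 7.14, 7.12 and 5.32 CPM in 160R heads, with a log2 change of 2.33 ± 0.51 (edgeR adjusted p = 0.0052).

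Small heat shock proteins, chaperones that hold unfolding proteins in solution, rose as a class. Of 8 genes tested, 5 were called higher and none lower (62.5% against 26.1% of all genes). Their median log2 change was 0.98, against 0.01 over all genes tested. Hsp26 stood at 8.1, 8.37, 8.71 and 8.61 CPM in the 5R libraries and at 34.7, 50.8, 56.5 and 15.6 CPM in the 160R libraries. Hsp23 was at 13, 14.9, 12 and 14.4 CPM in 5R and at 52.6, 77.2, 87.1 and 28.6 CPM in 160R. Hsp27 measured 2.45, 2.89, 3.22 and 3.05 CPM in the 5R libraries against 9.68, 16.3, 17.7 and 5.36 CPM in the 160R libraries. The 5R libraries were nearly equal, and in all 3 genes the 160R libraries kept the same order, with replicate 3 highest and replicate 4 lowest. The log2 changes were 2.21 ± 0.41 (edgeR adjusted p = 0.0018), 2.17 ± 0.31 (edgeR adjusted p = 0.00034) and 2.06 ± 0.33 (edgeR adjusted p = 0.00055). Hsp27 was named after its values were seen, and its overlap partner has 0.0211 times its counts. Hsp67Bc had 15.7, 17.1, 16.1 and 18.6 CPM in 5R heads and 30.1, 28.9, 28 and 21.9 CPM in 160R heads, a smaller rise of 0.68 ± 0.09 (edgeR adjusted p = 4.8e-05) with 160R replicate 4 again lowest. The remaining call was Hsp67Ba (0.34), which overlaps a gene with 0.93 times its counts. Of 6 Hsp70 and Hsp68 genes, the ATP-driven chaperones of the heat shock response, 2 rose and none fell, 33.3% against 26.1% of all genes. Hsp68 stood at 40.1, 28.7, 39.8 and 44.9 CPM in the 5R libraries and at 56.9, 110, 139 and 50.5 CPM in the 160R libraries. The 160R libraries again lay in the order of the small heat shock proteins, and the change was 1.22 ± 0.31 (edgeR adjusted p = 0.013), or an adjusted p of 0.0693 with the 8 libraries fitted by edgeR alone, although an overlapping gene has 0.233 times its counts. Hsp70Bc changed by 1.14 ± 0.24 (edgeR adjusted p = 0.0022) at 1.31 to 2.31 CPM in 160R. The Hsp70 copies are nearly identical in sequence, so the split of reads among them is uncertain.

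Of the 12 largest falls 7 were in enzymes and 1 in a gene of sensory cilia. CG18673, of the carbonic anhydrase family, was at 10.6, 12.4, 10.3 and 16.9 CPM in 5R and at 0.912, 1.02, 0.843 and 0.849 CPM in 160R. Its 160R libraries were almost equal and all below 5R, with a log2 change of -3.82 ± 0.41 (edgeR adjusted p = 3.1e-05). CG8665, a folate dehydrogenase that releases carbon dioxide from the formyl form of the cofactor, measured 216, 209, 258 and 104 CPM in the 5R libraries against 52.5, 42.1, 39 and 50 CPM in the 160R libraries. 5R replicate 4 lay between the other 5R libraries and 160R, and the change was -2.1 ± 0.23 (edgeR adjusted p = 4.8e-05). CG18003, of the hydroxyacid oxidase family, had 103, 111, 102 and 95.1 CPM in 5R heads and 46.6, 26.9, 23.7 and 33.1 CPM in 160R heads. Its groups were far apart, at a change of -1.66 ± 0.16 (edgeR adjusted p = 1.2e-05). CG6910, of the inositol oxygenase family, stood at 1040, 969, 989 and 344 CPM in the 5R libraries and at 204, 278, 271 and 245 CPM in the 160R libraries. Again 5R replicate 4 was well below its group and still above every 160R library, and the change of -1.74 ± 0.27 (edgeR adjusted p = 0.00055) was -2.0 without it. The gene nompB, an intraflagellar transport protein needed for the cilia of mechanosensory neurons, was at 9.89, 12.8, 11.1 and 11.3 CPM in 5R and at 3.65, 3.11, 3.85 and 3.1 CPM in 160R. Both groups were tight, and nompB (2L, 21578292 to 21589423) changed by -1.72 ± 0.1 (edgeR adjusted p = 2.5e-08).

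The falls of CG10924, of the enzymes, and of 4 uncharacterised genes were as follows, CG13081 and CG33926 being the 2nd and 3rd largest after CG18673. CG10924, a phosphoenolpyruvate carboxykinase, measured 16.7, 12.6, 11 and 26.5 CPM in the 5R libraries against 6.08, 3.38, 3.61 and 2.48 CPM in the 160R libraries. The spread in both groups was wide but without overlap, and the change was -2.14 ± 0.41 (edgeR adjusted p = 0.0023). CG34166 had 248, 232, 194 and 186 CPM in 5R heads and 91, 59.2, 43 and 64 CPM in 160R heads. CG13081 stood at 4.99, 4.36, 10.3 and 4.74 CPM in the 5R libraries and at 0.811, 0.322, 0.472 and 0.229 CPM in the 160R libraries. CG33926 was at 9.8, 7.66, 13.1 and 2.22 CPM in 5R and at 1.47, 1.29, 1.25 and 1.47 CPM in 160R. By the rule of choice every 160R library was below every 5R library in these uncharacterised genes, though CG33926 in 5R replicate 4 came close to the 160R values. The log2 changes were -1.74 ± 0.26 (edgeR adjusted p = 0.0005), -3.78 ± 0.33 (edgeR adjusted p = 1.3e-06) and -2.54 ± 0.45 (edgeR adjusted p = 0.0014), the last -2.89 without that library. CG16898 measured 6.6, 9.09, 8.49 and 16.7 CPM in the 5R libraries against 3.6, 2.25, 2.16 and 4.38 CPM in the 160R libraries, with a change of -1.74 ± 0.31 (edgeR adjusted p = 0.0013).

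Cytochrome P450 genes, whose enzymes oxidise hormones, lipids and foreign compounds, were mostly lower. Of 82 tested, 38 fell and 6 rose (53.7% against 26.1% of all genes), with a median log2 change of -0.2. Among the 42 that overlap no other gene 21 fell and 2 rose. The class lay at 0.09 to 0.14 in 5R and -0.16 to 0.05 in 160R as the median of centred log2 CPM in each library, so the groups did not overlap. Cyp6a8 had 30.7, 31.6, 36.4 and 38.6 CPM in 5R heads and 12, 8.48, 7.69 and 13.8 CPM in 160R heads. Cyp309a1 stood at 53.5, 53.9, 44.7 and 59.4 CPM in the 5R libraries and at 32, 10.9, 9.31 and 16.9 CPM in the 160R libraries. Cyp309a2 was at 34.9, 37, 30.7 and 31 CPM in 5R and at 20.8, 9.5, 10.3 and 11.4 CPM in 160R. 160R replicate 1 was the highest of its group for both Cyp309a genes, which are neighbours on 2L, and none of the 3 overlapped between groups. The changes were -1.71 ± 0.24 (edgeR adjusted p = 0.00024), -1.62 ± 0.33 (edgeR adjusted p = 0.0035) and, for Cyp309a2, chosen after its values were seen, -1.37 ± 0.21 (edgeR adjusted p = 0.00049). Cyp9b2 measured 123, 133, 123 and 120 CPM in the 5R libraries against 66.8, 63, 61.5 and 74.7 CPM in the 160R libraries. Cyp12a5 had 7.82, 11.9, 10.7 and 11.7 CPM in 5R heads and 5.52, 5.69, 5.03 and 5.78 CPM in 160R heads. Cyp6a22 stood at 20.9, 21.6, 20.4 and 25.1 CPM in the 5R libraries and at 15.6, 12.8, 12.9 and 14.1 CPM in the 160R libraries. These falls were even across libraries, at -0.91 ± 0.07 (edgeR adjusted p = 2.4e-07), -0.96 ± 0.1 (edgeR adjusted p = 7.6e-06) and -0.67 ± 0.09 (edgeR adjusted p = 8.2e-05).

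Conjugating enzymes of detoxification moved in both directions. Of 34 glutathione S-transferase genes, which attach glutathione to reactive compounds, 11 fell and 2 rose (38.2% against 26.1% of all genes). The median was -0.16, or -0.1 without 5R replicate 4. GstZ2 was at 57.1, 58.8, 61.2 and 50 CPM in 5R and at 29.5, 32.4, 28.3 and 35.1 CPM in 160R. GstE3 measured 40.5, 39, 43 and 51.4 CPM in the 5R libraries against 26.5, 28, 27.4 and 31.4 CPM in the 160R libraries. GstD1 had 163, 157, 141 and 180 CPM in 5R heads and 138, 123, 127 and 131 CPM in 160R heads. All 3 were lower in every 160R library, with log2 changes of -0.86 ± 0.09 (edgeR adjusted p = 3.3e-06), -0.62 ± 0.1 (edgeR adjusted p = 0.00034) and -0.3 ± 0.06 (edgeR adjusted p = 0.0017). Against the class, GstE14 went from 14.8 to 21.5 CPM in 5R to 26.5 to 31.9 CPM in 160R, a change of 0.58 ± 0.14 (edgeR adjusted p = 0.008) in a gene chosen after its values were seen. Of 17 UDP-glycosyltransferase genes, which attach sugars, 5 fell and 3 rose (47.1%), and neighbours in a cluster on 3R moved in opposite directions. Ugt86Da stood at 51.6, 53.4, 50.6 and 55 CPM in the 5R libraries and at 44.3, 41.8, 42.5 and 45.3 CPM in the 160R libraries. Ugt86Di was at 0.942, 1.83, 1.29 and 1.83 CPM in 5R and at 3.09, 3.17, 3.07 and 2.71 CPM in 160R. Ugt35a measured 11.2, 12.8, 12.8 and 13.4 CPM in the 5R libraries against 8.82, 10.6, 9.82 and 9.18 CPM in the 160R libraries. Ugt86Da and Ugt35a were lower in all 160R libraries and Ugt86Di higher in all, with changes of -0.28 ± 0.04 (edgeR adjusted p = 0.00017), -0.4 ± 0.07 (edgeR adjusted p = 0.00036) and 0.97 ± 0.15 (edgeR adjusted p = 0.00019). In the same cluster Ugt86Dd (0.67 ± 0.14) and Ugt86De (0.73 ± 0.16) rose and Ugt86Dc (-1.17 ± 0.28) fell (edgeR adjusted p = 0.0025, 0.0031 and 0.006), all chosen after their values were seen.

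Genes that break down juvenile hormone, the insect hormone that governs maturation and reproduction, fell together. Of 15 genes of its metabolism and response, 7 fell and none rose (46.7% against 26.1% of all genes). The median was -0.13, or -0.2 to -0.29 without 5R replicate 2, 3 or 4 or 160R replicate 1 or 4. The epoxide hydrolase genes Jheh1, Jheh2 and Jheh3 stand side by side on 2R. Jheh1 had 123, 131, 136 and 132 CPM in 5R heads and 61.6, 65.7, 60 and 72.9 CPM in 160R heads. Jheh2 stood at 160, 162, 162 and 173 CPM in the 5R libraries and at 111, 111, 108 and 116 CPM in the 160R libraries. Jheh3 was at 35.1, 40, 39.6 and 41.9 CPM in 5R and at 25.3, 25.2, 26.5 and 25.4 CPM in 160R. No library of one group reached the other in any of them, and the log2 changes were -1.0 ± 0.07 (edgeR adjusted p = 1.4e-07), -0.56 ± 0.05 (edgeR adjusted p = 1.8e-06) and -0.61 ± 0.05 (edgeR adjusted p = 1.3e-06). Jhe, the juvenile hormone esterase, measured 11.9, 10.5, 13.7 and 3.09 CPM in the 5R libraries against 2.84, 3.65, 3.51 and 2.38 CPM in the 160R libraries. 5R replicate 4 lay among the 160R libraries, so the groups overlapped, with a change of -1.65 ± 0.4 (edgeR adjusted p = 0.0093), or an adjusted p of 0.0696 with limma-voom, in a gene chosen after its values were seen. The gene to, a secreted protein under clock control, had 1240, 922, 1250 and 1080 CPM in 5R heads and 166, 535, 450 and 537 CPM in 160R heads. Its 160R replicate 1 was the lowest library, and the change of -1.41 ± 0.3 (edgeR adjusted p = 0.0044) was -1.15 without it. The other falls were the hormone-inducible genes JhI-21 (-0.91) and JhI-26 (-0.24), each overlapping a gene with at least its own counts. The gene to is 1 of the fat body markers, whose sums, mostly Rfabg, were 10400 to 11900 CPM in 5R and 6070 to 6830 CPM in 160R. Rfabg and Mtp are also counted among the genes of fatty acid and lipid synthesis below. The part of these markers in the falls of detoxification, hormone and lipid genes was not tested.

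Genes of lipid breakdown were lower, and those of synthesis in part. Of 26 genes of lipid droplets, lipases and fatty acid breakdown, 16 fell and none rose (61.5% against 26.1% of all genes), with a median of -0.38. Of 19 genes of fatty acid and lipid synthesis 8 fell and 1 rose (47.4%), with a median of -0.06. Lsd-2, a perilipin that coats lipid droplets, stood at 343, 339, 329 and 293 CPM in the 5R libraries and at 229, 246, 244 and 251 CPM in the 160R libraries. The gene bmm, the triglyceride lipase brummer, was at 112, 88.2, 93.8 and 126 CPM in 5R and at 68.4, 60.9, 68.6 and 62 CPM in 160R. CG5009, an acyl-CoA oxidase, measured 143, 144, 152 and 145 CPM in the 5R libraries against 116, 114, 112 and 104 CPM in the 160R libraries. In each the groups were apart, with changes of -0.43 ± 0.05 (edgeR adjusted p = 3.5e-05), -0.69 ± 0.11 (edgeR adjusted p = 0.00049) and -0.39 ± 0.05 (edgeR adjusted p = 2e-05). On the side of synthesis, CG3523, a fatty acid synthase, had 5670, 5140, 5000 and 2790 CPM in 5R heads and 2610, 2460, 2660 and 2830 CPM in 160R heads. 5R replicate 4 lay within the 160R range while the other 5R libraries stood at 5000 CPM or above, and the change of -0.82 ± 0.15 (edgeR adjusted p = 0.0015), in a gene chosen after its values were seen, was -1.0 without that library. Desat1, the delta-9 desaturase, stood at 2650, 2380, 2320 and 1630 CPM in the 5R libraries and at 1240, 1400, 1370 and 1270 CPM in the 160R libraries. AcCoAS, acetyl-CoA synthetase, was at 1280, 1250, 1140 and 966 CPM in 5R and at 859, 758, 738 and 730 CPM in 160R. Mtp, which loads lipid onto lipoproteins, measured 151, 147, 148 and 112 CPM in the 5R libraries against 76.5, 79.1, 86.2 and 85.6 CPM in the 160R libraries. Every 160R library was below every 5R library, with log2 changes of -0.77 ± 0.11 (edgeR adjusted p = 0.00023), -0.59 ± 0.07 (edgeR adjusted p = 3.3e-05) and -0.77 ± 0.08 (edgeR adjusted p = 5.1e-06). The single rise was bond, of the fatty acid elongase family (0.62 ± 0.2, or 0.34 without 160R replicate 1), whose call ended when 5R library 1, 2 or 3 or 160R library 1 was left out (edgeR adjusted p 0.0743 to 0.0946).

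Central carbon and amino acid metabolism changed in single enzymes. Of 18 genes of the tricarboxylic acid cycle and its malic enzymes, 4 fell and 4 rose (44.4% against 26.1% of all genes). However, 1 of the rises, SkpA (0.13), encodes a ubiquitin ligase subunit outside this pathway. Idh, the NADP-dependent isocitrate dehydrogenase, had 667, 717, 698 and 593 CPM in 5R heads and 444, 393, 394 and 402 CPM in 160R heads. Men, malic enzyme, stood at 887, 919, 804 and 678 CPM in the 5R libraries and at 554, 498, 514 and 485 CPM in the 160R libraries. CG1544, of the 2-oxoglutarate dehydrogenase family, was at 63, 60.9, 60.5 and 45.1 CPM in 5R and at 35, 28.2, 27.4 and 28.9 CPM in 160R. These were lower in all 160R libraries, with log2 changes of -0.71 ± 0.06 (edgeR adjusted p = 8.9e-07), -0.68 ± 0.07 (edgeR adjusted p = 7.6e-06) and -0.94 ± 0.17 (edgeR adjusted p = 0.0011), and the cytosolic malate dehydrogenase gene Mdh1 by -0.46 ± 0.09 (edgeR adjusted p = 0.002). The malic enzyme homologue Men-b went the other way, at 0.37 ± 0.08 (edgeR adjusted p = 0.002). Both of the last were chosen after their values were seen. Of 5 genes of gluconeogenesis, 3 fell and 1 rose (80.0%), with a median of -0.66. CG1516, the pyruvate carboxylase, measured 1070, 1110, 1070 and 657 CPM in the 5R libraries against 748, 560, 609 and 553 CPM in the 160R libraries. 5R replicate 4 lay below 160R replicate 1, so the groups overlapped, and the change of -0.66 ± 0.15 (edgeR adjusted p = 0.0062) was -0.81 without 5R replicate 4. The other falls were CG10924, described above, and Pepck (-1.0), which overlaps a gene with 1.0 times its counts, and the rise was G6P (0.38). Of 24 genes of glycolysis and glycogen 3 fell and 1 rose (16.7% against 26.1% of all genes), with 7 falling without 160R replicate 1 and 2 rising without 5R replicate 4.

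Of 23 genes of amino acid breakdown and nitrogen metabolism, 10 fell and 2 rose (52.2% against 26.1% of all genes), and the median was -0.24. The gene v, tryptophan dioxygenase, which starts the path to the brown eye pigment, had 51.1, 52.6, 57.5 and 47.9 CPM in 5R heads and 35.2, 33.9, 33.7 and 34 CPM in 160R heads. Hn, phenylalanine hydroxylase, stood at 294, 312, 307 and 300 CPM in the 5R libraries and at 255, 214, 211 and 190 CPM in the 160R libraries. The gene ry, xanthine dehydrogenase, was at 116, 125, 137 and 108 CPM in 5R and at 102, 81.7, 87.8 and 79.4 CPM in 160R. The groups were apart in all 3, with changes of -0.61 ± 0.06 (edgeR adjusted p = 3.3e-06), -0.48 ± 0.08 (edgeR adjusted p = 0.00025) and -0.47 ± 0.1 (edgeR adjusted p = 0.0023). The rises were b, an aspartate decarboxylase used in tanning of the cuticle (0.48 ± 0.1), and Gdh, glutamate dehydrogenase (0.34 ± 0.09). Of 22 genes of serine, glycine, folate and methionine metabolism, 8 fell, CG8665 and CG18003 among them, and 3 rose. Cbs, cystathionine beta-synthase, measured 53.7, 55.4, 54.8 and 40.2 CPM in the 5R libraries against 40.4, 34.6, 36.2 and 35.6 CPM in the 160R libraries. 160R replicate 1 and 5R replicate 4 overlapped, and the change was -0.47 ± 0.09 (edgeR adjusted p = 0.0014). The rises were aay, a phosphoserine phosphatase (0.57 ± 0.14), Nmdmc, a folate dehydrogenase of mitochondria (0.49 ± 0.13), and SerT, the serotonin transporter, which belongs to another pathway (0.2 ± 0.07) and whose call ended when 5R library 1, 3 or 4 or 160R library 1 or 3 was left out (edgeR adjusted p 0.0593 to 0.116). Of 26 genes of oxidative stress and thiol metabolism 9 fell and 1 rose (38.5% against 26.1% of all genes). Sod, the cytosolic superoxide dismutase, went from 235 to 256 CPM to 190 to 226 CPM, a change of -0.28 ± 0.06 (edgeR adjusted p = 0.0018), the metallothionein gene MtnA changed by -0.35 ± 0.06 (edgeR adjusted p = 0.00089) and the peroxiredoxin gene Jafrac1 by -0.36 ± 0.07 (edgeR adjusted p = 0.0019), and in all 3 the groups were apart. The rise was TrxT (1.27 ± 0.4), whose call ended when 5R library 2 or 4 or 160R library 1 was left out (edgeR adjusted p 0.0598 to 0.0866).

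The protein-making machinery was lower at the ribosome. Of 87 cytosolic ribosomal protein genes 76 fell and none rose (87.4% against 26.1% of all genes), and of the 38 that overlap no other gene 36 fell. The library medians of the class, in log2 CPM centred over the 8 libraries, ran from -0.03 to 0.37 in 5R and -0.26 to -0.03 in 160R, and 5R replicate 4 and 160R replicate 1 met at -0.03. The highest median (0.37) was in 5R replicate 1, the library with the fewest counts (11452337). The lowest (-0.26) was in 160R replicate 4, with the most (30496479), and the part of depth was not tested. RpS24 had 330, 297, 304 and 258 CPM in 5R heads and 218, 205, 220 and 215 CPM in 160R heads. RpLP0 stood at 835, 761, 741 and 669 CPM in the 5R libraries and at 560, 552, 561 and 531 CPM in the 160R libraries. RpL37a was at 371, 315, 324 and 277 CPM in 5R and at 238, 222, 228 and 225 CPM in 160R. All 3 ribosomal protein genes were lower in every 160R library, with log2 changes of -0.47 ± 0.06 (edgeR adjusted p = 5e-05), -0.45 ± 0.06 (edgeR adjusted p = 5e-05) and -0.5 ± 0.07 (edgeR adjusted p = 5.3e-05). Of 36 translation factor genes 8 fell and 4 rose (33.3% against 26.1% of all genes), 5 falling without 5R replicate 1 and 2 rising without 160R replicate 1. Ef1gamma, a subunit of elongation factor 1, measured 639, 565, 554 and 471 CPM in the 5R libraries against 378, 354, 394 and 392 CPM in the 160R libraries. Ef1beta, another subunit, had 223, 205, 207 and 174 CPM in 5R heads and 150, 138, 144 and 143 CPM in 160R heads. The gene eIF5 stood at 277, 275, 274 and 287 CPM in the 5R libraries and at 329, 337, 312 and 304 CPM in the 160R libraries. The elongation factor subunits were lower in every 160R library, at -0.55 ± 0.07 (edgeR adjusted p = 4.1e-05) and -0.49 ± 0.06 (edgeR adjusted p = 4.7e-05), and eIF5, an initiation factor, rose by 0.2 ± 0.04 (edgeR adjusted p = 0.00099). Of 41 genes of ribosome biogenesis 1 fell and 2 rose (7.3%), from 0 to 2 falling and 1 to 4 rising when a library was left out. Of 22 aminoacyl-tRNA synthetase genes 4 fell and 2 rose, 1 rising without 5R replicate 2 or 4 or 160R replicate 1 or 3. This share, 27.3%, was near that of all genes, and the median was -0.01. Aats-lys was at 113, 113, 109 and 75.5 CPM in 5R and at 66.8, 68.3, 70.1 and 75 CPM in 160R, a change of -0.54 ± 0.13 (edgeR adjusted p = 0.0071) with 5R replicate 4 just above the highest 160R library.

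**Figure D2:**
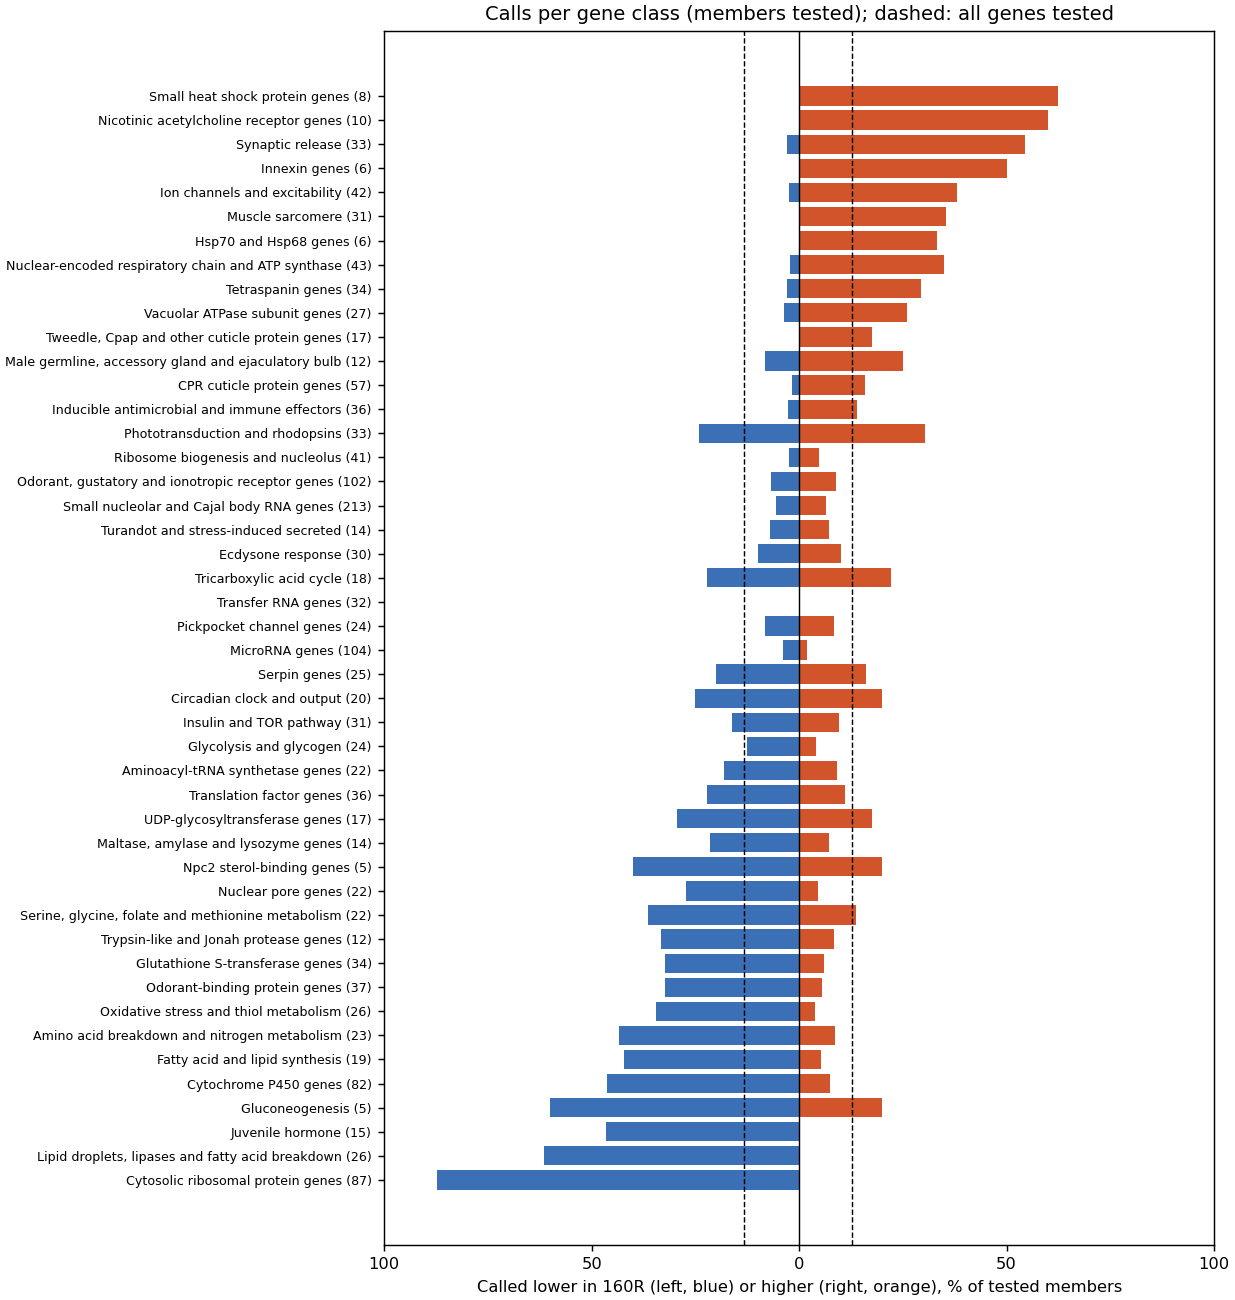
Share of tested members called in each of the 46 gene classes, higher in 160R to the right in orange and lower to the left in blue, in % of the members tested (number in brackets); dashed lines mark all 13525 genes, 12.8% higher and 13.3% lower. Cytosolic ribosomal protein genes and genes of lipid droplets and fatty acid breakdown stand out to the left, and small heat shock protein, nicotinic receptor and synaptic release genes to the right.

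Genes of neuronal signalling were slightly higher. Of 33 genes of transmitter synthesis, loading and release 18 rose and 1, Ddc (-0.32 ± 0.04), fell (2 fell without 5R replicate 4). This was 57.6% against 26.1% of all genes, with a median of 0.17. The class stood at -0.11 to -0.04 in 5R and 0.06 to 0.09 in 160R in centred log2 CPM, with no overlap. VGAT, the vesicular GABA transporter, measured 101, 104, 97.9 and 107 CPM in the 5R libraries against 161, 135, 128 and 123 CPM in the 160R libraries. DAT, the dopamine transporter, had 36.9, 41.1, 39.8 and 41.7 CPM in 5R heads and 57, 52.7, 49.6 and 48.8 CPM in 160R heads. Syt7, a synaptotagmin on chromosome 4, stood at 223, 234, 230 and 261 CPM in the 5R libraries and at 293, 322, 293 and 282 CPM in the 160R libraries. Every 160R library exceeded every 5R library, with log2 changes of 0.42 ± 0.07 (edgeR adjusted p = 0.0003), 0.38 ± 0.06 (edgeR adjusted p = 0.00031) and 0.33 ± 0.05 (edgeR adjusted p = 0.00031). Of 42 ion channel genes 16 rose and 1, Irk3, fell (40.5% in all), with a median of 0.12. Irk3 changed by -0.21 ± 0.07, a call that ended when 5R library 4 or 160R library 4 was left out (edgeR adjusted p 0.0747 to 0.0764), and 2 genes fell without 5R replicate 4. Ih, the hyperpolarisation-activated channel, was at 541, 527, 505 and 531 CPM in 5R and at 610, 653, 667 and 637 CPM in 160R. Shal, a voltage-gated potassium channel, measured 145, 149, 147 and 164 CPM in the 5R libraries against 172, 174, 181 and 180 CPM in the 160R libraries. GluRIA, an ionotropic glutamate receptor, had 39.8, 41.3, 40.7 and 40.5 CPM in 5R heads and 48.7, 48.5, 50.4 and 49.4 CPM in 160R heads. The shifts were 0.29 ± 0.04 (edgeR adjusted p = 0.00016), 0.22 ± 0.04 (edgeR adjusted p = 0.0015) and 0.28 ± 0.04 (edgeR adjusted p = 5.5e-05), small beside those above but without overlap. Of 10 nicotinic acetylcholine receptor subunit genes 6 rose and none fell, with a median of 0.16. The gene nAChRalpha7 stood at 285, 280, 272 and 320 CPM in the 5R libraries and at 349, 370, 341 and 341 CPM in the 160R libraries, a change of 0.28 ± 0.05 (edgeR adjusted p = 0.0012) with all 160R libraries above all 5R libraries. The summed neuronal markers were 4030 to 4300 CPM in 5R and 4510 to 4580 CPM in 160R. Gad1 (0.41), Syt1 (0.24) and brp (0.2) rose, while elav (0.09), nSyb (-0.11) and VGlut (-0.05) were not called (edgeR adjusted p = 0.24, 0.1 and 0.4). All but elav act in transmitter synthesis, loading or release themselves, so the sum is not independent of that class. The part of neuron number in these changes was not tested.

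Of 34 tetraspanin genes, which encode membrane proteins with 4 membrane passes, 10 rose and 1, Tsp29Fb (-0.61 ± 0.08), fell, and without 160R replicate 1 the falls were 3. In all 32.4% were called, against 26.1% of all genes. Tsp42Eg was at 19.4, 19.1, 20.2 and 20 CPM in 5R and at 27.1, 27.6, 25.9 and 24.5 CPM in 160R. Tsp42En measured 5.09, 5.33, 6.34 and 5.05 CPM in the 5R libraries against 8.31, 7.89, 8.64 and 7.9 CPM in the 160R libraries. Both lie in the Tsp42E cluster on 2R and were higher in all 160R libraries, with log2 changes of 0.42 ± 0.05 (edgeR adjusted p = 1.1e-05) and 0.58 ± 0.09 (edgeR adjusted p = 0.00017). Of 27 vacuolar ATPase subunit genes, the proton pump of lysosomes and synaptic vesicles, 7 rose and 1, VhaAC45, fell, 29.6% in all. VhaAC45 changed by -0.15 ± 0.04, a call that ended when 5R library 1 was left out (edgeR adjusted p = 0.0533). Vha68-1 had 486, 448, 444 and 466 CPM in 5R heads and 624, 563, 541 and 519 CPM in 160R heads. Vha26 stood at 469, 444, 446 and 471 CPM in the 5R libraries and at 588, 545, 522 and 502 CPM in the 160R libraries. Both pump subunits were higher in every 160R library, with log2 changes of 0.28 ± 0.06 (edgeR adjusted p = 0.0013) and 0.24 ± 0.05 (edgeR adjusted p = 0.0027). Of 6 innexin genes, which form gap junctions, 3 rose, but all overlap other genes, and 1 rose without 5R replicate 1 or 3 and none without 160R replicate 1.

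Muscle and respiratory chain genes were higher, and 3 libraries weighed on the counts. Of 31 sarcomere genes 11 rose and none fell (35.5% against 26.1% of all genes), with a median of 0.36 that was 0.17 without 160R replicate 1. Without 160R replicate 1 the counts were 6 and 3, without 5R replicate 2 they were 6 and 0, without 5R replicate 3 they were 5 and 0, and without 5R replicate 1 the falls were 1. The summed muscle markers were 3870 to 4520 CPM in 5R and 5090 to 8940 CPM in 160R, replicate 1 highest, and their part was not tested. The gene up, troponin T, was at 168, 162, 153 and 189 CPM in 5R and at 527, 284, 255 and 267 CPM in 160R. The 160R libraries 2 to 4 were also above all of 5R, and the change of 0.99 ± 0.24 (edgeR adjusted p = 0.0089) was 0.68 without replicate 1. Mlc1, a myosin light chain, measured 85, 79.3, 81 and 106 CPM in the 5R libraries against 361, 159, 151 and 141 CPM in the 160R libraries, a change of 1.2 ± 0.34 (edgeR adjusted p = 0.02), or 0.77 without 160R replicate 1, whose call ended when 5R library 2 or 3 or 160R library 1 was left out (edgeR adjusted p 0.0536 to 0.0561). The gene wupA, troponin I, had 162, 149, 144 and 170 CPM in 5R heads and 363, 215, 199 and 211 CPM in 160R heads, with a change of 0.66 ± 0.18 (edgeR adjusted p = 0.019), or 0.41 without 160R replicate 1, whose call ended when 5R library 3 was left out (edgeR adjusted p = 0.0558). Of 43 nuclear genes of the respiratory chain and ATP synthase 15 rose and 1, CG11455 (-0.18 ± 0.05), fell (37.2% in all). The rises were 8 without 160R replicate 1, 9 without 5R replicate 2 and 8 without 5R replicate 3. The gene sun, an ATP synthase subunit, stood at 81, 76, 74.7 and 89.8 CPM in the 5R libraries and at 142, 117, 103 and 103 CPM in the 160R libraries. CoVb, a cytochrome oxidase subunit, was at 145, 145, 143 and 160 CPM in 5R and at 230, 191, 172 and 176 CPM in 160R. Cyt-c-p, cytochrome c, measured 224, 206, 215 and 220 CPM in the 5R libraries against 362, 283, 274 and 264 CPM in the 160R libraries. Replicate 1 was the highest 160R library in all 3, the groups did not overlap, and the changes were 0.53 ± 0.11 (edgeR adjusted p = 0.0037), 0.38 ± 0.09 (edgeR adjusted p = 0.0049) and 0.45 ± 0.11 (edgeR adjusted p = 0.0059).

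Cuticle protein genes mostly changed upward, and their rises partly followed 160R replicate 1. Of 57 CPR genes, which carry the chitin-binding Rebers and Riddiford motif, 39 had a change above 0. The median was 0.15, or 0.04 without 160R replicate 1. By the calls 9 rose and 1, Edg78E (-1.23 ± 0.33), fell, while 4 rose and 2 fell without 160R replicate 1. This was 17.5% against 26.1% of all genes, shares that also depend on the level of the genes. Without 5R replicates 1, 2 or 3 the rises were 5, 5 and 4 and the falls 3, 1 and 2. Cpr72Ec had 224, 246, 229 and 214 CPM in 5R heads and 522, 596, 596 and 581 CPM in 160R heads. This CPR gene did not follow replicate 1, was higher in all 160R libraries, and changed by 1.33 ± 0.13 (edgeR adjusted p = 1.1e-05). Of 17 genes of other cuticle families 3 rose (obst-A, Acp1 and TwdlE), 17.6% in all, with a median of 0.34 and 13 changes above 0. The obst-A call ended when 5R library 1, 2, 3 or 4 or 160R library 1 was left out (edgeR adjusted p 0.0583 to 0.0974), the Acp1 call when 5R library 1, 2, 3 or 4 or 160R library 1 was left out (edgeR adjusted p 0.0523 to 0.0946) and the TwdlE call when 5R library 1, 2 or 3 or 160R library 1, 2 or 3 was left out (edgeR adjusted p 0.0562 to 0.0888). Acp1 stood at 0.471, 0.558, 0.43 and 2.18 CPM in the 5R libraries and at 136, 16.4, 23.2 and 15 CPM in the 160R libraries. Its 160R replicate 1 stood far above the rest of the group, which still lay above 5R, and the change of 5.54 ± 1.7 (edgeR adjusted p = 0.03) was 4.17 without it and 6.58 without 5R replicate 4. For Acp1 limma-voom gave an adjusted p of 0.244 and DESeq2 gave none.

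**Figure D3:**
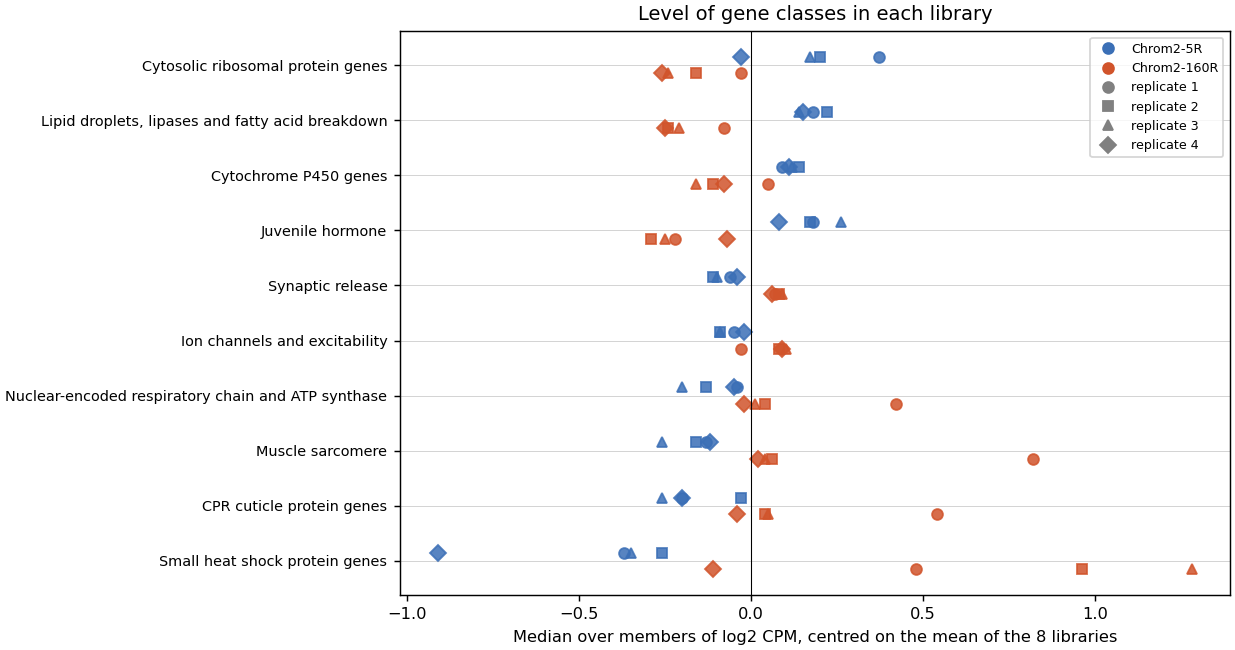
Level of 10 gene classes in each library, as the median over tested members of log2 CPM centred on the mean of the 8 libraries, with 5R in blue, 160R in orange and a symbol for each replicate. Synaptic release genes form narrow groups (-0.11 to -0.04 and 0.06 to 0.09), while Chrom2-160R replicate 1 lies apart for muscle sarcomere genes (0.82) and CPR cuticle protein genes (0.54).

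In the eye, genes of light detection moved in both directions, with 10 of 33 higher and 8 lower (54.5% against 26.1% of all genes). The gene ninaE, the major rhodopsin of the outer photoreceptors, was at 11500, 7670, 7790 and 6120 CPM in 5R and at 4910, 5530, 4680 and 4140 CPM in 160R. The libraries spread widely within 5R, yet every 160R library was lower, and the change was -0.78 ± 0.15 (edgeR adjusted p = 0.0014). The gene ninaD, a scavenger receptor that takes up carotenoids for the visual pigment, measured 5.75, 6.65, 6.07 and 9.57 CPM in the 5R libraries against 25.2, 15, 14.9 and 18.4 CPM in the 160R libraries. The gene pinta, a retinoid-binding protein of the pigment cells, had 34, 35.3, 33.7 and 30.2 CPM in 5R heads and 26.4, 21.1, 22.4 and 24.2 CPM in 160R heads. The gene ninaG, an oxidoreductase that makes the chromophore, stood at 38.5, 39.6, 36.7 and 29.9 CPM in the 5R libraries and at 19.9, 20.5, 22.4 and 22 CPM in the 160R libraries. The uptake receptor rose and the later steps fell, each without overlap, with log2 changes of 1.36 ± 0.22 (edgeR adjusted p = 0.00065), -0.5 ± 0.07 (edgeR adjusted p = 4.8e-05) and, in ninaG, chosen after its values were seen, -0.77 ± 0.16 (edgeR adjusted p = 0.0027). Summed photoreceptor markers were at 12900 to 18800 CPM in 5R and 11200 to 13300 CPM in 160R, with ninaE the largest of the 4. Of the others chp rose by 0.23, and norpA (0.08) and trp (0.13) did not pass the test (edgeR adjusted p = 0.012, 0.18 and 0.14).

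Some secreted carriers of the antenna and gut were lower. Of 37 odorant-binding protein genes 12 fell and 2 rose, 37.8% against 26.1% of all genes. The class as a whole did not shift, with a median of 0.03, 20 changes above 0 and 17 below. Obp19b was at 22.8, 21, 21.9 and 20 CPM in 5R and at 14.7, 12.1, 13.3 and 15.5 CPM in 160R. Obp19d measured 518, 457, 441 and 380 CPM in the 5R libraries against 253, 338, 327 and 354 CPM in the 160R libraries. Obp56g had 194, 166, 174 and 159 CPM in 5R heads and 133, 156, 129 and 130 CPM in 160R heads. The neighbours Obp19b and Obp19d and the gene Obp56g were lower in every 160R library, with log2 changes of -0.62 ± 0.07 (edgeR adjusted p = 1.7e-05), -0.49 ± 0.1 (edgeR adjusted p = 0.0022) and -0.34 ± 0.07 (edgeR adjusted p = 0.0018). Of 102 odorant, gustatory and ionotropic receptor genes 9 rose and 7 fell, a share below that of all genes, with 5, 4 and 3 rising without 5R replicate 2, 5R replicate 3 or 160R replicate 3. Of 5 genes of the Npc2 sterol-binding family 2 fell and 1, Npc2b, rose by 0.13, a call that ended when 5R library 1, 2 or 3 or 160R library 1 or 2 was left out (edgeR adjusted p 0.0578 to 0.0931). Npc2g stood at 173, 176, 161 and 162 CPM in the 5R libraries and at 98.3, 98.9, 103 and 110 CPM in the 160R libraries. Npc2h was at 127, 118, 128 and 119 CPM in 5R and at 73.1, 67.5, 68.8 and 79.2 CPM in 160R. These neighbours on 3R fell in step, with log2 changes of -0.71 ± 0.06 (edgeR adjusted p = 1.3e-06) and -0.77 ± 0.07 (edgeR adjusted p = 6.8e-07). Of 14 maltase, amylase and lysozyme genes 3 fell and 1 rose, 28.6% in all. Amy-d measured 53.3, 55.7, 47 and 46.9 CPM in the 5R libraries against 19.6, 19.5, 21.9 and 18.6 CPM in the 160R libraries. Amy-p had 51.4, 57.3, 35.9 and 37.2 CPM in 5R heads and 16.9, 25, 25.3 and 13.6 CPM in 160R heads. Both amylase genes, which are also the midgut markers with counts above the filter, were lower in every 160R library, with log2 changes of -1.35 ± 0.15 (edgeR adjusted p = 3.3e-05) and -1.17 ± 0.31 (edgeR adjusted p = 0.016), but they are near-identical copies, so the share of each is uncertain. The rise was Mal-A7, at or below 0.698 CPM, whose call ended when 5R library 1, 2 or 4 or 160R library 1 or 2 was left out (edgeR adjusted p 0.0524 to 0.1).

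Of 36 inducible antimicrobial and immune effector genes 5 rose and 1 fell, 16.7% against 26.1% of all genes, with 2 falling without 5R replicate 4 or 160R replicate 2. IM2 stood at 161, 153, 123 and 129 CPM in the 5R libraries and at 255, 262, 227 and 195 CPM in the 160R libraries. IM23 was at 31.9, 47.9, 27.7 and 27.9 CPM in 5R and at 67.1, 77.2, 93 and 52.3 CPM in 160R. Drsl4 measured 48.6, 47.8, 42.1 and 47.8 CPM in the 5R libraries against 27.3, 31.9, 26.4 and 36.3 CPM in the 160R libraries. The immune-induced peptide genes IM2 and IM23 were higher in all 160R libraries and Drsl4, a drosomycin-like gene, lower in all, at 0.73 ± 0.14 (edgeR adjusted p = 0.0016), 1.1 ± 0.22 (edgeR adjusted p = 0.0028) and -0.61 ± 0.09 (edgeR adjusted p = 0.00011). The other rises were IM3 (0.45 ± 0.12), CG5778 (0.68 ± 0.16) and IM1 (0.72 ± 0.21), the last of which ended when 5R library 3 or 4 or 160R library 1, 2 or 3 was left out (edgeR adjusted p 0.0583 to 0.0707). Of 14 Turandot and stress-induced secreted genes 1 rose and 1 fell, 14.3% in all (2 fell without 5R replicate 2). The gene upd3, a cytokine of the JAK-STAT pathway, had 0.283, 0.355, 0.322 and 0.261 CPM in 5R heads and 0.912, 0.752, 0.877 and 0.457 CPM in 160R heads, a change of 1.26 ± 0.28 (edgeR adjusted p = 0.0034) at a low level. The gene vir-1 stood at 536, 525, 552 and 533 CPM in the 5R libraries and at 411, 470, 450 and 406 CPM in the 160R libraries, a change of -0.31 ± 0.05 (edgeR adjusted p = 0.00031). Of 25 serpin genes, inhibitors of serine proteases, 4 rose and 5 fell, 36.0% in all, and Spn55B was at 15.1, 12.6, 17 and 13.2 CPM in 5R and at 18.8, 24.5, 23.6 and 21.5 CPM in 160R, a change of 0.61 ± 0.12 (edgeR adjusted p = 0.0019). Of 12 genes of trypsin-like proteases 4 fell and 1 rose, 41.7% in all (2 rose without 5R replicate 4 or 160R replicate 4). Tequila, a multidomain serine protease, measured 897, 828, 893 and 770 CPM in the 5R libraries against 568, 587, 611 and 611 CPM in the 160R libraries, a change of -0.51 ± 0.05 (edgeR adjusted p = 1.8e-06) with the groups well apart.

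Of 31 genes of the insulin and TOR pathway 5 fell and 3 rose, 25.8% against 26.1% of all genes. The falls numbered 1 without 5R replicate 3, 9 without 5R replicate 4 and 2 or 3 without 5R replicate 1 or 2 or 160R replicate 1, 2 or 3. Of 30 ecdysone response genes 3 fell and 3 rose, 6 falling without 5R replicate 4. Eip63F-1 had 93.9, 106, 102 and 107 CPM in 5R heads and 135, 143, 133 and 130 CPM in 160R heads, an ecdysone-induced gene that changed by 0.4 ± 0.06 (edgeR adjusted p = 7.9e-05) and whose overlap partner has 0.033 times its counts. Of 20 clock and clock output genes 5 fell and 4 rose, a share above the 26.1% of all genes. Pdf, the neuropeptide of the clock neurons, stood at 37.2, 39.4, 36 and 40.3 CPM in the 5R libraries and at 27.5, 34.2, 31.2 and 31.1 CPM in the 160R libraries, a change of -0.3 ± 0.07 (edgeR adjusted p = 0.0053). Of 22 nuclear pore genes 6 fell and 1, Gp210 (0.44 ± 0.06), rose, 31.8% in all. The falls were 3 without 5R replicate 2, 5R replicate 3 or 160R replicate 1 and 2 without 160R replicate 2. Nup98-96 was at 91.5, 89.9, 90.5 and 90.7 CPM in 5R and at 78.9, 80.9, 78.9 and 83.8 CPM in 160R, a change of -0.17 ± 0.04 (edgeR adjusted p = 0.0042). Of 213 small nucleolar and Cajal body RNA genes 14 rose and 12 fell (12.2%), and 10 of the 213 overlap no other gene. Of 104 microRNA genes 2 rose and 4 fell (5.8%), with 1 rising without 5R replicate 2 or 160R replicate 2 and 4 without 160R replicate 3. Of 32 transfer RNA genes none was called, and 1 fell without 5R replicate 4 or 160R replicate 3. Of 24 pickpocket channel genes 2 rose and 2 fell (16.7%), with 1 rising without 5R replicate 3 or 4 or 160R replicate 2 and 1 falling in 6 of the 8 fits without a library. The gene ppk13 measured 0.188, 0.152, 0.215 and 0.131 CPM in the 5R libraries against 0.862, 1.34, 0.911 and 1.27 CPM in the 160R libraries. This gene, of the sodium channel family of degenerins, was low in both groups, had groups apart and changed by 2.69 ± 0.32 (edgeR adjusted p = 1.7e-05).

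The calls differed by chromosome and by gene span. On chromosome 4, the small and largely heterochromatic autosome, 44 of 105 genes rose (41.9%) and 5 fell (4.8%), with a median log2 change of 0.16, and of its 58 genes that overlap no other 27 rose and none fell. On X, 2L, 2R, 3L and 3R 24.6% to 28.1% of genes were called, with 11.8% to 13.2% higher and 11.9% to 15.2% lower. By gene span, the longest quartile (5334 bp and over) had 729 genes higher and 389 lower, while the 2nd quartile (1190 to 2280 bp) had 306 higher and 557 lower and the 3rd (2281 to 5326 bp) 400 and 569. Among genes that overlap no other the longest quartile had 318 higher and 174 lower and the 2nd 148 and 285. Calls also grew with level, from 7.7% in the quartile of genes with the lowest mean CPM to 41.5% in the highest, and shares of calls in classes of low and of high genes are not comparable. The part of level and span in the counts of calls was not tested.

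**Figure D4:**
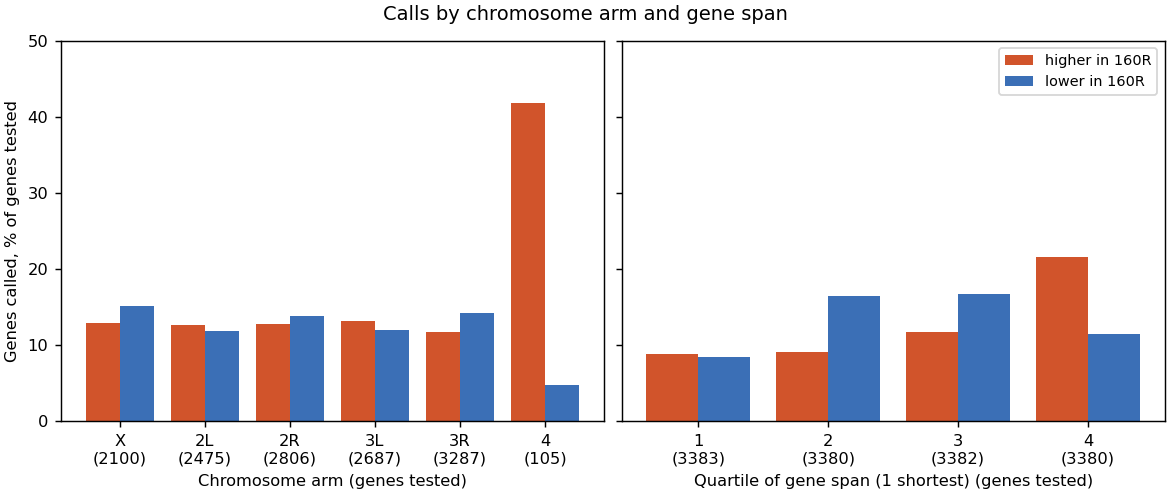
Share of tested genes called higher (orange) or lower (blue) in 160R, in % of the genes tested (number in brackets), by chromosome arm and by quartile of gene span. Chromosome 4 has 41.9% higher and 4.8% lower, and in the longest quartile 21.6% are higher and 11.5% lower.

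The same repeats on chromosome 3 gave 285 calls among the 13525 genes (2.11%), and the change differed between the insertions for 983 genes (7.27%) by the test of the interaction. That second count fell to 632, 584 and 600 without 5R replicate 1, 5R replicate 3 or 160R replicate 2 and reached 1695 without 5R replicate 4. None of the 24 genes with the largest changes was called on chromosome 3, although 11 of the 12 rises had a change above 0 there and 11 of the 12 falls one below 0. Because the 24 were chosen for large changes on chromosome 2, which the interaction uses again, smaller changes on chromosome 3 are expected from the choice. The interaction was called for 12 of the 24, namely for the rises CG7906, CG30050, CG17005, CG11052 and Hsp23 and for the falls CG18673, CG13081, CG33926, CG8665, CG6910, nompB and CG18003. Leaving out a library ended it for CG7906 in 7 of the 8 fits (edgeR adjusted p 0.0545 to 0.0991), for CG33926 in 7 (0.0514 to 0.0798), for Hsp23 in 5 (0.0523 to 0.0673) and for CG6910 in 3 (0.0576 to 0.0626). These were the fits without 5R replicates 1, 2 and 3, joined for Hsp23 by 160R replicates 2 and 3 and for CG7906 and CG33926 by all 160R replicates. CG17005 changed by -0.41 ± 0.15 and nompB by -0.07 ± 0.1 on chromosome 3, interactions of -2.95 ± 0.25 (edgeR adjusted p = 1.6e-06) and 1.66 ± 0.14 (edgeR adjusted p = 1.6e-06). For Peb, CG7214 and CG7203 the interaction was not called (edgeR adjusted p = 0.43, 0.16 and 0.33), a p that does not show the insertions to act alike. Among the class members above, ppk13 (2.22 ± 0.22), Cyp9b2 (-0.48 ± 0.07), Npc2g (-0.47 ± 0.06), Npc2h (-0.29 ± 0.06), Jheh1 (-0.33 ± 0.07), Jheh2 (-0.21 ± 0.05), Cpr72Ec (0.64 ± 0.13), Amy-d (-0.64 ± 0.14), Tequila (-0.2 ± 0.05) and Ugt35a (-0.26 ± 0.06) were also called on chromosome 3, each in the direction it had on chromosome 2 (edgeR adjusted p = 1.6e-05, 0.00057, 0.00029, 0.022, 0.013, 0.045, 0.017, 0.033, 0.041 and 0.034). The size of the change differed between the insertions in Cyp9b2, Npc2h, Jheh1, Jheh2, Cpr72Ec and Tequila (edgeR adjusted p = 0.013, 0.0041, 0.00069, 0.0096, 0.037 and 0.011) and was not called different in ppk13, Npc2g, Amy-d and Ugt35a (0.61, 0.11, 0.056 and 0.37), and the call for Cpr72Ec ended without any 1 library except 160R replicate 1 (edgeR adjusted p 0.0504 to 0.0764).

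**Figure D5:**
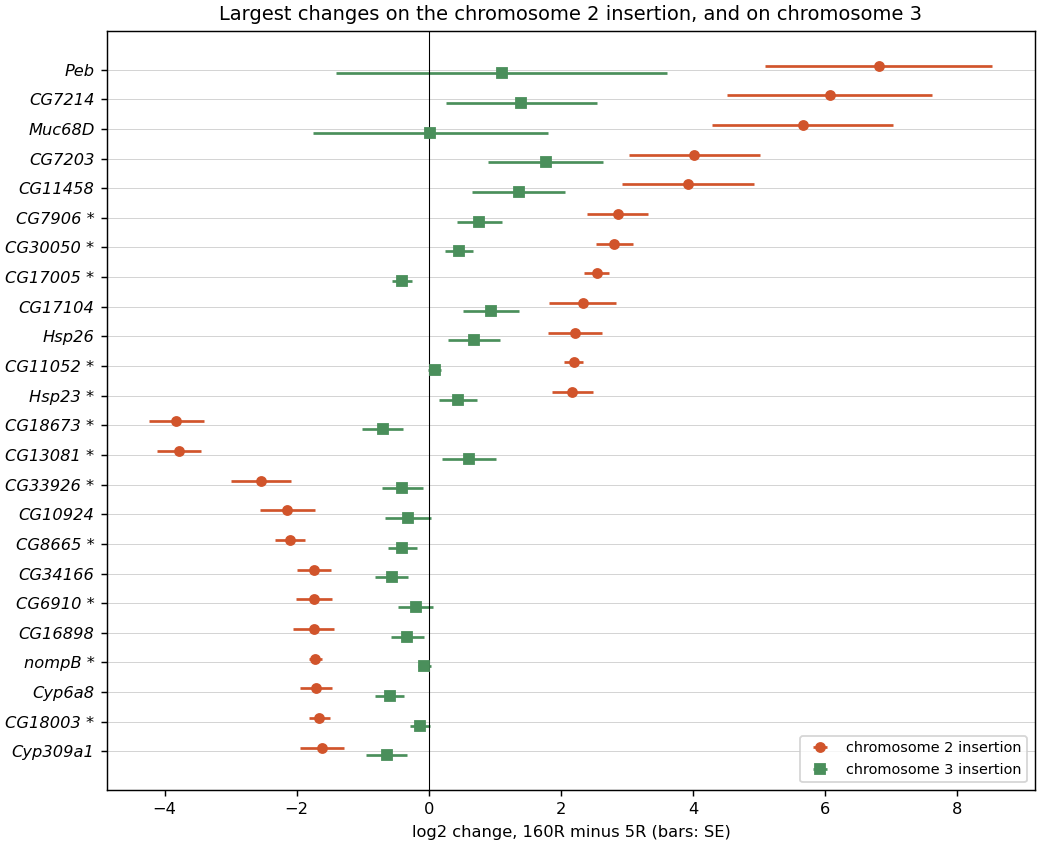
Log2 change, 160R minus 5R, of the 12 largest rises and 12 largest falls on the chromosome 2 insertion (orange circles) beside the change of the same genes on the chromosome 3 insertion (green squares), with bars of 1 SE; an asterisk marks an interaction with an adjusted p below 0.05. The 12 genes with an asterisk include nompB, at -1.72 and -0.07, and CG17005, at 2.54 and -0.41.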

How the data were processed

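Per the labels' protocols, RNA of male fly heads was extracted with Trizol and made into strand-specific libraries. The authors deposited a table of raw counts per annotated gene span for each library; Trimmomatic, STAR, bedtools and DESeq are named in the submitters' processing notes with the builds BDGP6 and mm10, without roles, so the counting settings are unknown here. Coordinates are those of the files, 1-based, on BDGP6.

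Counts of all 16 libraries were fitted as 4 group means with edgeR 4.0.16 in R 4.3.3 (TMM factors, filterByExpr, robust quasi-likelihood test), Benjamini-Hochberg adjustment over 13525 genes and a threshold of 0.05. The steps were tested on simulated data. Log2 changes carry an SE worked back from the test, as the absolute change divided by the square root of its F statistic. It is thus approximate. The common biological coefficient of variation was 0.106. DESeq2 1.42.0, limma-voom 3.58.1 and the other alternatives are given at the end. The largest changes named are 12 each way by the rule in the text. Members and gene lists were chosen with earlier results of these data known. Same-numbered libraries deviated together with correlations of only -0.0186 to 0.0651, so no pairing by number was seen. Noise in low genes could hide a pairing, so it is not known. Promoter motifs were not analysed here.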

Additional observations from a re-analysis of the deposited data

Results flagged for a closer look

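In the levels described above, single libraries were set apart from the other 3 of their group, with a gap to the nearest library above Dixon's 95% limit for 4 samples. The gap is judged against the range of the group, so a small difference is flagged where the other libraries lie close together, as for Jheh3. Chance alone sets about 1 in 20 groups apart in this way, and how many of the flags below it would give was not worked out. The library Chrom2-5R replicate 4 stood apart from the rest of its group for CG7214 (7.92 CPM), CG7203 (38.7 CPM), CG6910 (344 CPM), Acp1 (2.18 CPM), Aats-lys (75.5 CPM), CG1516 (657 CPM), CG1544 (45.1 CPM), CoVb (160 CPM), Mtp (112 CPM), Cbs (40.2 CPM), Ugt86Dc (1.04 CPM) and Irk3 (19.3 CPM). In Chrom2-160R replicate 1 the values set apart were Peb (99.9 CPM), CG7214 (423 CPM), CG7203 (690 CPM), Acp1 (136 CPM), Sod (226 CPM), up (527 CPM), wupA (363 CPM), Mlc1 (361 CPM), Cyp309a2 (20.8 CPM), Mdh1 (377 CPM) and bond (84.3 CPM). Chrom2-160R replicate 2 was set apart for Muc68D (46.5 CPM) and Obp56g (156 CPM). The library Chrom2-5R replicate 1 stood apart from the rest of its group for GstE14 (14.8 CPM) and VhaAC45 (304 CPM). In Chrom2-5R replicate 3 the values set apart were CG13081 (10.3 CPM) and Drsl4 (42.1 CPM). Chrom2-160R replicate 3 was set apart for Jheh3 (26.5 CPM). The library Chrom2-160R replicate 4 stood apart from the rest of its group for IM1 (79.9 CPM).

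For the following genes the change on chromosome 3 differed from that on chromosome 2 by the edgeR test of the interaction (adjusted p below 0.05); each value is the log2 change on chromosome 3 minus that on chromosome 2. Among genes that rose on chromosome 2 the difference was -2.1 for CG7906, -2.35 for CG30050, -2.95 for CG17005, -2.11 for CG11052, -1.73 for Hsp23, -1.3 for Ugt86Di, -2.72 for Cpr49Af, -1.08 for Hsp70Bc, -1.37 for upd3, -1.69 for Hsp27 and -1.16 for CG5778. Next came -0.69 for Cpr72Ec, -0.54 for Tsp42En, -0.7 for IM2, -0.84 for Ugt86Dd and -0.84 for Ugt86De. The remaining differences were -0.19 for eIF5, -0.41 for Hsp67Bc, -0.36 for Tsp42Eg, -0.3 for nAChRalpha7, -0.36 for Eip63F-1, -0.18 for GluRIA, -0.32 for Ih, -0.32 for DAT and -0.35 for Syt7. Among genes that fell on chromosome 2 the difference was 3.12 for CG18673, 4.39 for CG13081, 2.14 for CG33926, 1.69 for CG8665, 1.54 for CG6910, 1.66 for nompB, 1.53 for CG18003, 1.1 for Cyp309a2 and 1.69 for Edg78E. Next came 0.84 for Cyp12a5, 0.51 for Cyp6a22, 0.78 for GstZ2, 0.56 for Obp19b, 0.62 for Idh, 0.59 for Men, 0.5 for Mtp, 0.79 for Desat1, 0.75 for bmm, 0.67 for Jheh1, 0.52 for Jheh3, 0.79 for CG3523, 0.99 for ninaG and 0.51 for Irk3. The remaining differences were 0.43 for Cyp9b2, 0.27 for Ugt86Da, 0.33 for Obp56g, 0.4 for RpS24, 0.36 for RpLP0, 0.41 for RpL37a, 0.36 for Ef1gamma, 0.46 for Ef1beta, 0.31 for Tequila, 0.48 for Npc2h, 0.44 for AcCoAS, 0.28 for CG5009, 0.27 for Lsd-2, 0.44 for Cbs, 0.42 for Hn, 0.35 for Jheh2, 0.27 for vir-1, 0.4 for pinta, 0.26 for Ddc, 0.29 for VhaAC45, 0.47 for Tsp29Fb and 0.44 for v. The genes were named for their changes on chromosome 2, which the test uses again, so smaller changes on chromosome 3 are expected from the choice. Of these 70 calls 30 were lost under at least 1 alternative and 25 without at least 1 library. The 25 were CG7906, Hsp23, CG33926, CG6910, Cyp6a22, Obp56g, Cpr72Ec, Ef1gamma, eIF5, Hsp67Bc, Hsp70Bc, nAChRalpha7, Lsd-2, Cbs, Hn, GluRIA, IM2, vir-1, upd3, DAT, Hsp27, Ugt86De, CG3523, Cyp309a2 and Edg78E.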

How the results depend on the processing

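Against 3535 genes called, 1735 higher and 1800 lower, DESeq2 gave 1695 and 1834, edgeR with RLE factors 1683 and 1854, limma-voom 1392 and 1554, no filter 1603 and 1583, and a stricter filter 1563 and 1774. The 8 libraries fitted alone gave 2293 calls, 1083 of them higher. A fit of the genes that overlap no other gene, which tests fewer genes, gave 1720 calls, 754 higher and 966 lower. Against 738 calls of at least 1.5-fold, the stricter filter gave 433 and the genes that overlap no other gene 416, both over fewer genes. Leaving out each library in turn gave 2657 to 3779 calls, 1269 to 1872 higher, 1388 to 1907 lower and 595 to 832 of at least 1.5-fold. Without Chrom2-5R replicate 4 and Chrom2-160R replicate 1 together, an alternative chosen after seeing the data, the counts were 1840 and 1857.

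With replicate number as a block the counts were 1439 higher and 1452 lower, 630 of them at least 1.5-fold. The best match of the 5R libraries 1 to 4 was 160R library 3, 2, 4 and 1, and whether the numbers pair the libraries is not known. The 983 genes with a difference between insertions became 557 with the block, 479 with the genes that overlap no other gene, 2126 without both libraries, and 584 to 1695 on leaving out each library; the cause was not tested. Among 180 named genes 47 lost their call under at least 1 alternative (185 of 3001 values recomputed), with the sign kept in all, and of the 78 interactions called among them 35 were lost under at least 1 alternative. The transgene was not among the counted genes, and changes in genes near the lowest levels rest on few counts.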
